A study of Homo sapiens with 4 samples.

Results

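The numbered ZNF genes of chromosome 19 were the 249 protein-coding genes of that chromosome whose symbol is ZNF followed by a number, among 1480 coding genes of chromosome 19 and 20163 coding genes in all. They were chosen by name and position, from GENCODE release 44 on GRCh37 (hg19), and the rule uses no FAIRE value, although the gene set was picked for description with earlier results of these data known. The other 1231 coding genes of chromosome 19 served for comparison. FAIRE-seq, in which fixed chromatin is extracted and its soluble fraction sequenced, recovers DNA that is depleted of nucleosomes, and each library gave a list of accessible sites. The cells were H295R/TR SF-1, derived by subcloning from the adrenocortical tumour line H295R, in which doxycycline induces SF-1 (NR5A1), the nuclear receptor that controls steroidogenic genes. Both groups carried the inducible SF-1. In the overexpression group doxycycline was added for 3 days before fixation, and the basal group is the one labelled as having basal SF-1. There was 1 FAIRE library per condition, all from 1 subclone, so differences between the conditions could not be checked in replicates, and 2 input DNA libraries were not analysed here.

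Zinc finger genes of the C2H2 kind encode transcription factors that read DNA with a row of short finger modules, each holding a zinc ion between a pair of cysteines and a pair of histidines. Many also carry a KRAB domain, which recruits the corepressor TRIM28 and, through it, histone methylation that silences transposable elements. On human chromosome 19 these genes lie in tandem clusters that arose by duplication, their fingers are usually encoded together in the last coding exon, and in many cell types the promoters are accessible while the 3′ parts of the genes carry repressive histone marks.

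The basal list held 34423 sites and the overexpression list 31219, of which 1535 (4.46%) and 1583 (5.07%) lay on chromosome 19. Sites that overlapped between the lists by 1 bp or more are called shared here, and 77.1% and 74.3% of the chromosome 19 sites were shared. The lists gave no read counts, so depth is unknown and a gene without a site means only that none was called there. Of 8 markers of steroidogenic adrenocortical cells, 6 had a site within 1 kb of the gene start in at least 1 list (4 in the basal list, 5 in the overexpression list), and HSD3B2 and SCARB1 had none. NR5A1 had a basal site alone, and CYP11A1 and MC2R had an overexpression site alone. Outside chromosome 19, 38.4% and 40.2% of coding genes other than numbered ZNF genes had a site in the 2 lists. With 8 genes these counts do not establish the cell type. Intervals below are 95% intervals and cover counting error only. Genes and sites are not replicates, and neighbouring genes can share a site.

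Promoters of 5 members are printed to show the range of what was found: the widest open promoter, an open promoter that holds the letters bound by ETS factors, the widest promoters with a site in 1 list alone, and the member with most fingers, which had no site. Each line gives the 150 bases before the gene start on the gene's strand of GRCh37, in lower case, with matches to CCGGAAG (ETS factors) or GGGCGG (SP1) on either strand in capitals. ZNF473 (chr19:50528821-50528970, plus strand) and ZNF865 (chr19:56116863-56117012, plus strand) had a site in both lists. ZNF708 (chr19:21512228-21512377, minus strand) had a site in the basal list alone, ZNF428 (chr19:44123782-44123931, minus strand) in the overexpression list alone, and ZNF208 (chr19:22193752-22193901, minus strand) in neither.
ZNF473: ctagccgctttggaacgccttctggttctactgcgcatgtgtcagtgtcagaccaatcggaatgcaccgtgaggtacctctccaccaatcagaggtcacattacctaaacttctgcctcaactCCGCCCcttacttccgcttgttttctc
ZNF865: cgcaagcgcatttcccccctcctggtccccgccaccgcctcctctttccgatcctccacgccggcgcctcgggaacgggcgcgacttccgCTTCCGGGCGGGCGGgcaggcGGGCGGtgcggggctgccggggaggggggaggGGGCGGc
ZNF708: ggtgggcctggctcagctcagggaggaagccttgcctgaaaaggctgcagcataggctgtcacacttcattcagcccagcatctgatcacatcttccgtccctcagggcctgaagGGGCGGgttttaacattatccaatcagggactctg
ZNF428: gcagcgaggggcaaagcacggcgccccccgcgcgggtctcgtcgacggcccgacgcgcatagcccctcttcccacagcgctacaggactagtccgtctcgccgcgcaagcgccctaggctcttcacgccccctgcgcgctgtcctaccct
ZNF208: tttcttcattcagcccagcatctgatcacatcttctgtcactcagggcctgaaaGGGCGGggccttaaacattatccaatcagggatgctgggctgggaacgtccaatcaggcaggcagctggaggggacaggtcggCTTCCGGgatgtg

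The first question was how many of these genes had an open promoter, taken as a site overlapping the window from 1 kb before to 1 kb after the gene start, the 5′ end of the annotated gene. In the basal list 170 of 249 members had such a site, or 68.3% (62.1 to 74.0), and in the overexpression list 165, or 66.3% (60.02 to 72.1). Over all coding genes of chromosome 19 the share called was 48.4% for basal sites and 50.1% for overexpression sites. The other coding genes had a site at 547 of 1231 starts in the basal list (44.4%, 41.6 to 47.3) and at 576 in the overexpression list (46.8%, 43.97 to 49.6). The members stood 23.8 percentage points above them in the basal list (Newcombe interval 17.2 to 30.0) and 19.5 points above in the overexpression list (12.8 to 25.7). With the wider 50% of each list alone the differences were 13.3 points (6.56 to 20.02) and 11.9 points (5.13 to 18.6). With the start of the principal transcript in place of the gene start, a choice made after the data were seen, the members reached 73.1% (182 genes) and 71.9% (179 genes), against 43.9% and 46.1% of the other coding genes. The principal start lay over 1 kb from the gene start in 46 members, and 204 of 249 members had a site at either of these starts in either list.

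The 266 numbered ZNF genes of other chromosomes share the naming, and whether they lie in clusters was not examined. They had an open promoter in 57.1% (50.96 to 63.2) of cases for basal sites and 60.2% (54.0 to 66.1) for overexpression sites. The members of chromosome 19 were 11.1 points higher in the basal list (2.77 to 19.3). In the overexpression list the difference was 6.11 points, and its interval, -2.22 to 14.3, included 0.

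Within the members the sites sat close to the gene start. The median site centre lay upstream of the start, at -60 bp in the basal list (quartiles -93 to -20) and at -52 bp in the overexpression list (-93.5 to -7). Of the pairs of a gene and a site, 83.6% and 81.3% had the site centre within 250 bp of the start, against 61.97% and 63.1% for the other coding genes. The site covered the start itself in 145 of 170 open members (85.3%) and in 140 of 165 (84.8%), against 70.4% and 73.4% of the open promoters of other coding genes. Most open members had 1 site in the window, while 19 had more basal and 21 had more overexpression sites.

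**Figure D1:**
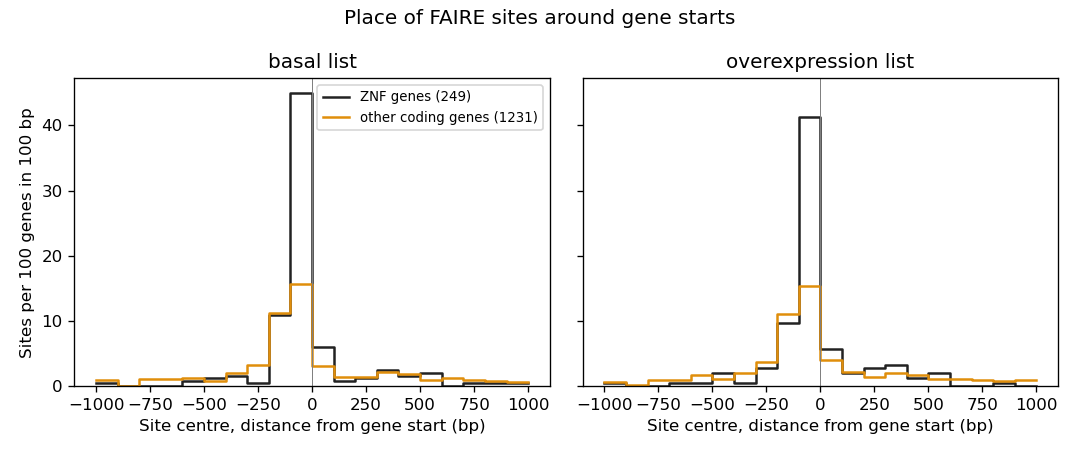
The x axis is the distance of the site centre from the gene start in bp (negative is upstream) and the y axis the number of sites per 100 genes in each 100 bp, for the 249 ZNF genes (black) and the 1231 other coding genes (orange), with 1 panel per list. In both lists the black line peaks in the 100 bp just upstream of the start and lies above the orange line there.

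The members' promoter sites were narrower than those of the other coding genes at the upper end. Their median width was 274 bp in the basal list (quartiles 199 to 349, range 99 to 749) and 299 bp in the overexpression list (249 to 349, range 99 to 799). The sites at other coding genes had medians of 299 and 349 bp, and the widest were 1399 and 1449 bp. Sites of 399 bp or more made up 17.4% and 18.6% of the members' sites, and 34.2% and 39.9% of those at other coding genes. Each list numbers its sites in order, and the place of a site is given here as a percent of the way down. The members' sites had a median place of 24.5% and 21.7%, the sites at other coding genes 15.9% and 16.2%. Widths lie on a 50 bp grid, and what set the order was not stated.

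**Figure D2:**
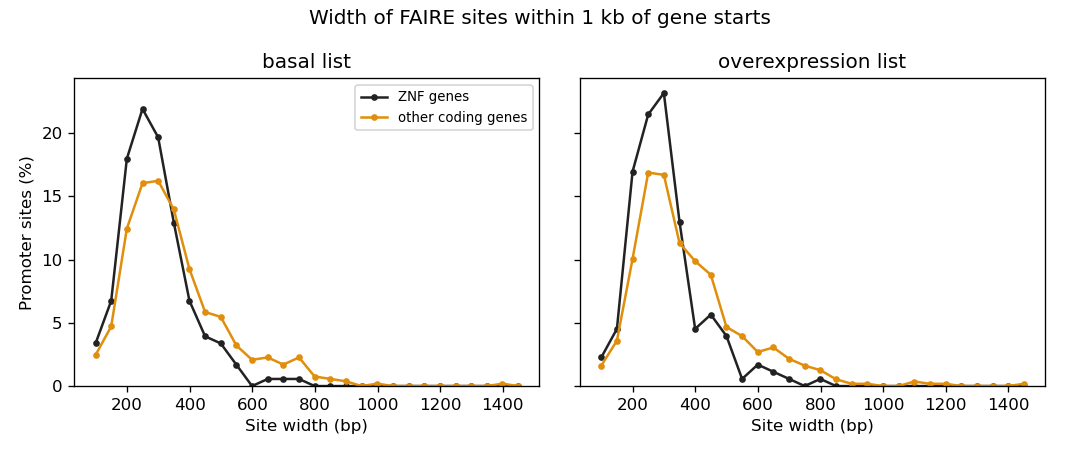
The x axis is the width of a promoter site in bp and the y axis the percent of promoter sites of that width, for ZNF genes (black) and other coding genes (orange), with 1 panel per list. Both lines peak near 250 to 300 bp, and the orange line runs on further to the right.

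The widest member sites were at ZNF473 (749 bp basal, chr19:50528601-50529349, and 799 bp with SF-1 overexpressed, chr19:50528601-50529399). ZNF473 encodes a zinc finger protein that takes part in the 3′ processing of histone transcripts, and its start lies within 1 kb of that of VRK3, a kinase gene. ZNF146, whose protein consists of fingers with no KRAB domain, had the same 699 bp in both lists (chr19:36705401-36706099). ZNF225 had 649 and 599 bp, but these sites were centred 1041 and 1066 bp downstream of its start, so that part of each lay outside the window. ZNF527 had 549 and 449 bp, ZNF865 549 and 499 bp, ZNF558 499 and 649 bp, ZNF576 499 and 599 bp, and ZNF784 399 and 649 bp. All 8 were open in both lists. ZNF784 had the greatest gain in width among them and ZNF527 the greatest loss.

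The second question was which promoters differed between basal and overexpressed SF-1. Of the 184 members open in either list, 151 were open in both (82.1%, 75.7 to 87.3), close to the 84.7% (81.6 to 87.5) of other coding genes. Another 19 (7.63% of the 249) were open in the basal list alone and 14 (5.62%) in the overexpression list alone, where 3.45% and 5.07% of all coding genes of chromosome 19 were called. The ratio of overexpression-alone to basal-alone members was 0.737, with an interval of 0.342 to 1.55 that included 1. Among other coding genes 32 were open in the basal list alone and 61 in the overexpression list alone, a ratio of 1.91 (1.22 to 3.02). No interval comparing these 2 ratios was computed. When each list was brought to the same number of sites, the members gave 18 basal-alone and 19 overexpression-alone genes. No such counts were made for the other coding genes, so their ratio of 1.91 holds for lists of unequal length only. Counted over sites, 155 of 178 basal promoter sites of members were shared (87.1%, 81.2 to 91.6) and 155 of 177 overexpression sites (87.6%, 81.8 to 92.0), against 89.8% and 84.9% at other coding genes. The difference in shared sites was -2.73 points (-8.90 to 2.32) in the basal list and 2.65 points (-3.64 to 7.84) in the overexpression list, and both intervals included 0. When a distance of up to 500 bp sufficed for sharing, the basal difference was -4.82 points (-10.6 to -0.281), which left 0 out.

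In the 151 members open in both lists the widest site at the start was wider with SF-1 overexpressed in 57, wider in the basal list in 45 and equal in 49, and the median change was 0 bp. The corresponding counts for 515 other coding genes were 219, 126 and 170. Sites present in 1 list only were narrower, with a median of 199 bp in each list against 299 bp for the shared sites of members.

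Members open in the basal list alone had sites of 99 to 299 bp (median 199), with a median place of 58.6%. The widest was at ZNF708 (299 bp, chr19:21512101-21512399), which covered the start and had its centre at -23 bp. ZNF491, ZNF20, ZNF443, ZNF649 and ZNF836 each had a site of 249 bp that covered the start. ZNF20, ZNF443 and ZNF491 lie in the cluster from ZNF653 to ZNF791, which held 4 basal-alone and 0 overexpression-alone members among 26. Other clusters varied. The counts were 3 and 1 from ZNF101 to ZNF254, 1 and 0 from ZNF565 to ZNF573, and 0 and 1 from ZNF575 to ZNF180. They were 2 and 4 from ZNF175 to ZNF331, and 3 and 3 from ZNF264 to ZNF446. ZNF274, which encodes a KRAB zinc finger protein known to bind the 3′ ends of other zinc finger genes and to bring in the methyltransferase SETDB1, was named after its values were seen. It had a basal site of 199 bp (chr19:58694601-58694799), centred 304 bp downstream of its start, and none in the overexpression list.

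Members open in the overexpression list alone had sites of 99 to 399 bp (median 224), at a median place of 48.5% down the list. The widest was at ZNF428 (399 bp, chr19:44123701-44124099), centred upstream of the start at -119 bp. ZNF846 had 349 bp, centred 381 bp downstream, and ZNF586 had 299 bp (chr19:58280851-58281149), the site with the highest place of this group, 9.28% down the list. ZNF333, ZNF780B and ZNF579 each had 249 bp. The sites at ZNF333 and ZNF846 did not reach the gene start, and ZNF846 had a site at the start of its principal transcript in both lists.

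The third question was the 3′ end of the genes, where the fingers are encoded. The members held 3106 fingers by letter pattern, 3082 of them in last coding exons, with a median of 12 per member and a maximum of 36 in ZNF208. In 244 of 249 members the last coding exon encoded at least 1 finger. This exon had a median coding length of 1523 bp, against 156 bp in other coding genes. A site overlapped its coding part, outside the gene's own promoter window, in 2 members in the basal list (0.803%, 0.0974 to 2.87) and in 1 in the overexpression list (0.402%, 0.0102 to 2.22). The share over all coding genes of chromosome 19 was 1.35% and 2.09%, with far shorter exons. No site of either list was centred in this coding sequence. That is 0 sites in 0.379 Mb, which allows up to 9.72 sites per Mb. The other coding genes' last coding exons held 6 basal sites (16.9 per Mb, 6.19 to 36.7) and 12 overexpression sites (33.8 per Mb, 17.4 to 59.0) in 0.356 Mb. The basal intervals overlap, and no interval of the difference was computed. Sites near the starts of neighbouring genes were kept in these counts. The members' finger exons had a median GC content of 40.8%, and its part was not tested. Words of 32 bases in the members' last coding exons occurred once in the genome in 83.8% of cases, against 92.2% in other coding genes. How reads from repeated sequence were treated was not stated, and its part in the absence of sites was not tested. With the untranslated part of the same exon counted too, the share of members with a site was 1.61% (0.439 to 4.06) for basal sites and 0.402% for overexpression sites, and the density of centred sites 3.29 per Mb (0.679 to 9.62) and 1.10 per Mb (0.0278 to 6.12).

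The exception was ZNF473, with 18 fingers in an exon at chr19:50547927-50550313 (coding part). The basal site (chr19:50550251-50550449, 199 bp) and the overexpression site (chr19:50550201-50550449, 249 bp) overlapped each other and lay across the stop codon, with 63 and 113 coding bases and the rest in the 3′ untranslated part. The coding bases of these sites are shown because they were the finger-encoding sequence that a FAIRE site reached. Capitals mark the codons of the cysteines and histidines that hold the zinc ion, on the plus strand of GRCh37. The overexpression site contained the codons of 1 whole finger and the basal site the end of it.
ZNF473 basal (chr19:50550251-50550313): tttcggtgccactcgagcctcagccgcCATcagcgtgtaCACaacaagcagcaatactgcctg
ZNF473 overexpression (chr19:50550201-50550313): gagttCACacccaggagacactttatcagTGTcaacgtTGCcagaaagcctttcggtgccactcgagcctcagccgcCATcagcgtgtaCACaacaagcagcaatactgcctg

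The other overlap was with ZNF625-ZNF20, a read-through gene, and concerned an exon with 0 fingers. That basal site (chr19:12251101-12251349) is the promoter site of ZNF20 described above.

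Inside the gene bodies, more than 1 kb from the gene start, the members held 75 basal sites (10.2 per Mb, 8.06 to 12.8) and 69 overexpression sites (9.42 per Mb, 7.33 to 11.9) in 7.32 Mb. The other coding genes held 594 (22.95 per Mb, 21.1 to 24.9) and 658 (25.4 per Mb, 23.5 to 27.4). Of the members' body sites 54 (72.0%, 60.4 to 81.8) and 53 (76.8%, 65.1 to 86.1) were shared, where 74.7% and 68.6% were over all coding genes of chromosome 19. Most lay near another annotated transcript start: 55 of 75 (73.3%) and 48 of 69 (69.6%) were within 1 kb of one, against 56.9% and 58.5% over all coding genes of the chromosome. In particular, 40 of the 75 and 36 of the 69 were within 1 kb of the principal transcript start of a member. The members' body densities above therefore include sites at their principal starts. Away from every transcript start, 20 basal sites and 21 overexpression sites were left in members, of which 10 and 9 were shared. Per Mb of whole body length this was 2.73 (1.67 to 4.22) and 2.87 (1.78 to 4.38). In other coding genes it was 10.4 (9.19 to 11.7) and 10.9 (9.66 to 12.2). Sequence near the starts stayed in the length, so these are not densities of the sequence away from starts. By the site centre, 15 and 12 body sites lay in introns of the principal transcript, 6 and 5 in untranslated exon sequence, none in coding sequence, and 54 and 52 in parts of the gene outside the principal transcript.

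**Figure D3:**
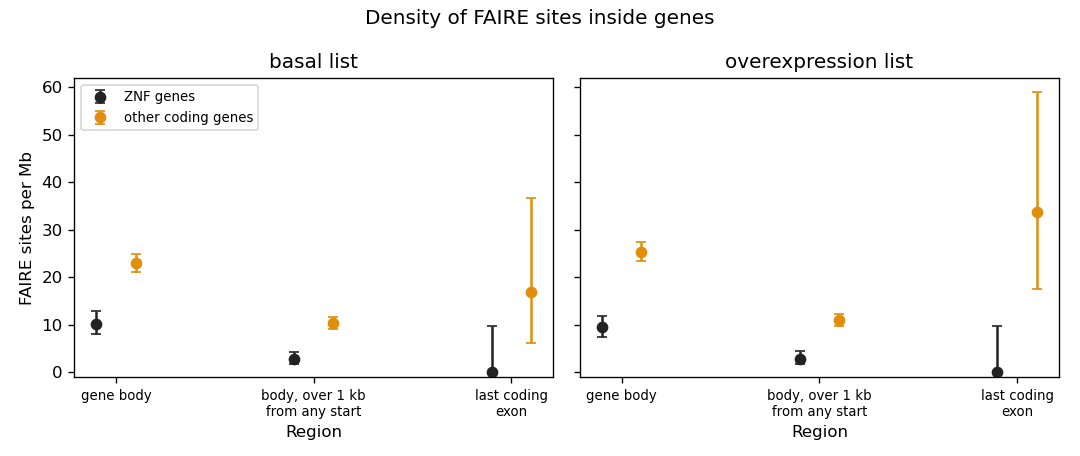
The y axis is the number of FAIRE sites per Mb and the x axis the region (gene body beyond 1 kb from the gene start, the same without sites within 1 kb of any transcript start, and the coding part of the last coding exon), for ZNF genes (black) and other coding genes (orange), with 1 panel per list and bars for exact Poisson 95% intervals. The black points lie below the orange points in all 3 regions, at 0 in the last coding exon. In the middle region, sites near transcript starts were left out of the count while the length stayed that of the whole body.

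The members with most body sites were ZNF846, ZNF536 and ZNF575, with 4 in each list. At ZNF575 all 4 were shared, from chr19:44031301-44031499 to chr19:44038101-44038499 in the basal list, and all lay within 1 kb of a transcript start. Its gene start had no site, but its principal transcript start had a site in both lists. The site at chr19:44031301-44031499 lay within 1 kb of the start of another gene, ETHE1. At ZNF846, 3 of 4 basal sites were shared. ZNF536, a neural zinc finger gene that stands alone rather than in a cluster, had no promoter site, and none of its body sites was near a transcript start. Of its sites, chr19:31155101-31155399 had the same limits in both lists and the basal site chr19:31173901-31174249 overlapped an overexpression site. Both hold the SF-1 motif CAAGGTCA or CAAGGCCA. The remaining 2 in each list were called in that list only, and of these the overexpression site chr19:30853451-30853649 also holds the motif. Over all body sites the motif was found in 7 of 75 (9.33%, 3.84 to 18.3) and 8 of 69 (11.6%, 5.14 to 21.6) in members, against 12.6% and 13.1% in other coding genes.

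Sequence features that the naming rule did not use were then set against the promoter sites. The members' 2 kb windows around the start had a median GC content of 52.1%, below the 58.2% of other coding genes, while their ratio of observed to expected CpG was 0.585 against 0.545. Within classes of equal GC the members had the higher basal share in each class. At 45 to 50% GC, 38 of 61 members (62.3%, 49.0 to 74.4) had a basal site, against 17 of 78 other coding genes (21.8%, 13.2 to 32.6). At 50 to 55% GC it was 68 of 93 (73.1%, 62.9 to 81.8) against 97 of 246 (39.4%, 33.3 to 45.8), and at 55 to 60% GC 44 of 65 (67.7%, 54.9 to 78.8) against 182 of 391 (46.5%, 41.5 to 51.6). In the overexpression list the 55 to 60% class had 67.7% (54.9 to 78.8) against 50.9% (45.8 to 55.96), with overlapping intervals. Above 60% GC the intervals overlapped in both lists. Intervals of the differences within single classes were not computed. Below 45% GC, 7 of 15 members and 0 of 45 other coding genes had a basal site. Weighted to the members' GC classes, the other coding genes came to 35.7% for basal sites and 37.2% for overexpression sites, and the difference to 32.8 points (25.6 to 39.4) and 29.4 points (22.1 to 36.1). This weighting did not match the CpG ratio. The median ratio was 0.661 in other coding genes open in both lists and 0.349 in those open in neither, against 0.592 and 0.533 in members. The part of the CpG ratio in the excess was not tested.

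**Figure D4:**
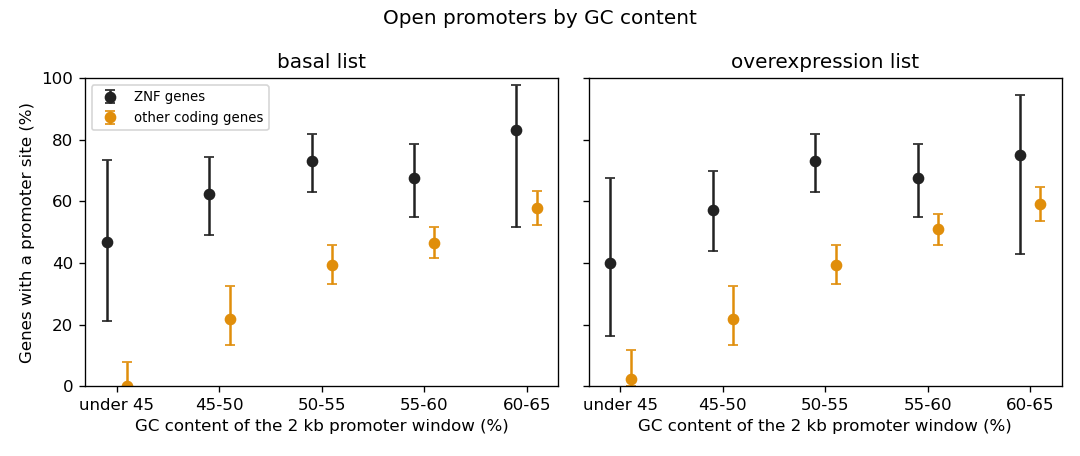
The x axis is the GC content of the 2 kb window around the gene start in classes and the y axis the percent of genes with a promoter site, for ZNF genes (black) and other coding genes (orange), with 1 panel per list and bars for exact 95% intervals. The black points lie above the orange points in every class drawn. The class above 65% GC, with 3 ZNF genes, is left out.

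The letters bound by ETS factors, CCGGAAG, stood out among the 6 motifs searched on both strands from 250 bp before to 50 bp after the start. They were found in 102 of 249 members (41.0%, 34.8 to 47.4), against 13.2% (11.3 to 15.2) of the other coding genes and 17.8% of all coding genes of chromosome 19. Among members they were present in 72 of the 151 open in both lists (47.7%, 39.5 to 56.0) and 19 of the 65 open in neither (29.2%, 18.6 to 41.8). No interval of this difference was computed. In ZNF865, printed above, the match runs into an SP1 match. Searched within the promoter sites themselves, the ETS letters were in 73 of the members' 178 basal sites (41.0%, 33.7 to 48.6) and 73 of 177 overexpression sites (41.2%, 33.9 to 48.9), against 24.0% (20.4 to 27.8) and 24.96% (21.4 to 28.8) of the sites at other coding genes, which were wider. The SP1 letters GGGCGG were found in 61.0% of members and 59.3% of other coding genes. The palindrome of NRF1 was in 3.61% and 2.44%, the cyclic AMP response element TGACGTCA in 2.81% and 3.25%, the YY1 letters AAGATGGCG in 2.81% and 2.60%, and the SF-1 letters CAAGGTCA or CAAGGCCA in 2.41% and 3.57%. The 6 members with an SF-1 match were ZNF878, ZNF844, ZNF527, ZNF628 and ZNF784, which were open in both lists, and ZNF358, which was open in neither. A match is only a match of letters.

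A KRAB domain was recognised by letter pattern in 192 members, a pattern that misses diverged domains. Of these, 71.4% (64.4 to 77.6) had a basal promoter site and 69.3% (62.2 to 75.7) an overexpression site, against 57.9% (44.1 to 70.9) and 56.1% (42.4 to 69.3) of the 57 others. The differences of 13.5 points (-0.244 to 27.7) and 13.1 points (-0.763 to 27.4) had intervals that included 0. The number of fingers followed no order: members with up to 8, 9 to 12, 13 to 16 and 17 or more fingers had a basal site in 67.3%, 64.6%, 73.3% and 67.4% of cases. Another gene began within 1 kb on the opposite strand at 56 members. Of these 82.1% (69.6 to 91.1) and 80.4% (67.6 to 89.8) were open, 17.9 points (4.30 to 28.4) and 18.2 points (4.34 to 29.1) above the other 193 members. Among other coding genes the corresponding shares were 77.3% and 79.9% of 308 with such a neighbour, and 33.5% and 35.8% of 923 without.

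The members fell into 21 groups separated by more than 500 kb between neighbouring starts, and 10 groups of at least 5 members held 235 of them. Of the 14 members outside these groups, 5 had a basal and 7 an overexpression site. The cluster with the lowest share ran from ZNF101 to ZNF254 (chr19:19779605-24312770, 37 members, 33 with the KRAB pattern). There 20 members (54.1%, 36.9 to 70.5) were open in the basal list and 18 (48.6%, 31.9 to 65.6) in the overexpression list. The cluster from ZNF653 to ZNF791 (chr19:11594242-12750912, 26 members) had the highest basal share, with 23 open (88.5%, 69.8 to 97.6) and 19 in the overexpression list (73.1%, 52.2 to 88.4). The cluster from ZNF175 to ZNF331 had 24 and 26 of 40 members open, that from ZNF264 to ZNF446 had 32 of 43 in each list, that from ZNF575 to ZNF180 had 18 and 19 of 23, and that from ZNF565 to ZNF573 had 20 and 19 of 26. Differences between clusters were not given intervals. At the gene start the intervals of all 10 clusters overlap in each list. At the principal transcript start they do not: the cluster from ZNF101 to ZNF254 had 48.6% (31.9 to 65.6) and 45.9% (29.5 to 63.1) of its members open, and that from ZNF565 to ZNF573 had 92.3% (74.9 to 99.1) in both lists. The 110 other coding genes that start inside the 10 clusters were open in 36.4% and 38.2% of cases.

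**Figure D5:**
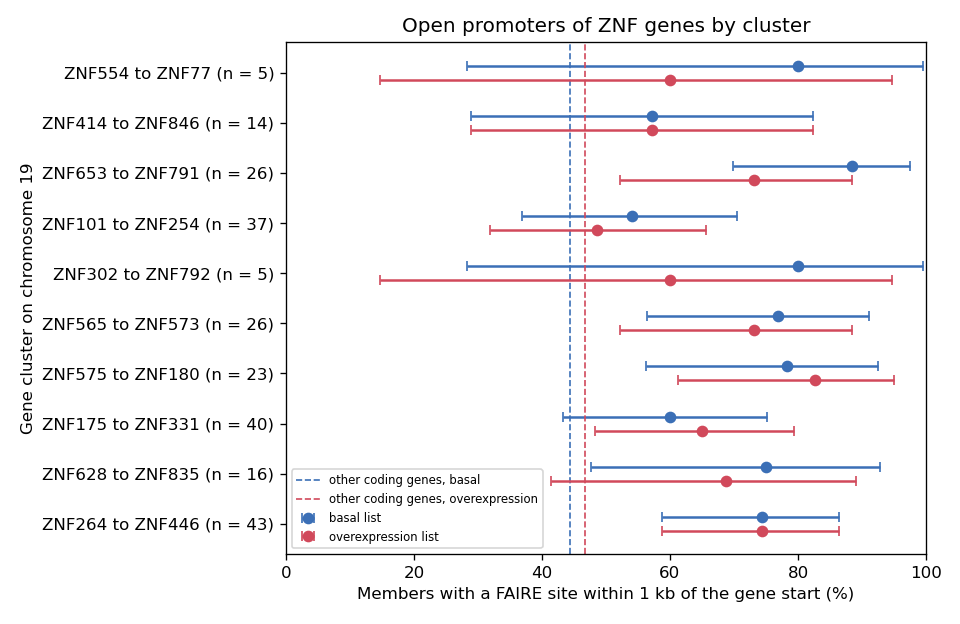
The x axis is the percent of members with a promoter site in the basal list (blue) and the overexpression list (red), and the y axis the 10 clusters in chromosome order with their number of members; bars are exact 95% intervals and dashed lines the shares of the other coding genes. The points of the cluster from ZNF101 to ZNF254 lie nearest to the dashed lines and those of the cluster from ZNF653 to ZNF791 furthest to the right in the basal list.

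In the cluster from ZNF101 to ZNF254, 16 of 37 members had a site in neither list. Among them were 8 neighbours in a row, ZNF208, ZNF257, ZNF676, ZNF729, ZNF98, ZNF492, ZNF99 and ZNF723, over 0.926 Mb (chr19:22115760-23041469) that held 0 basal sites and 1 overexpression site. This was the longest run of members without a promoter site, and it was looked for after the data were seen. It held ZNF208 and ZNF729, the members with the most fingers (36 and 34). ZNF91, with 31 fingers, and ZNF93, with 16, encode repressors of retrotransposons, lie in the same cluster and were open in both lists. ZNF91 had 199 bp in the basal list and 249 bp in the overexpression list (chr19:23578251-23578449 and chr19:23578201-23578449), and ZNF93 had 349 and 249 bp.

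Sequence in this cluster is repeated more than elsewhere. The median share of 32-base words that occur once in the genome was 78.3% in its promoters and 67.1% in its last coding exons, and 73.7% in the promoters of the run of 8. Over all members the median promoter had 91.7% unique words where both lists had a site and 85.0% where neither had. Members whose promoter words were at least 90% unique were open in 77.8% (69.2 to 84.9) and 78.6% (70.1 to 85.7) of 117 cases, and those below 90% in 59.8% (50.96 to 68.3) and 55.3% (46.4 to 64.0) of 132. Pooled over all promoter words, the unique share was 87.8% in members and 88.0% in other coding genes. The medians over genes were 89.5% and 91.8%. The part of repeated sequence in the missing sites was not tested. The printed promoters of ZNF708 and ZNF208 show the repetition. They share the following stretch of 32 bases, which was also found in the promoter of ZNF676, in no other member and in none of the other coding genes of the chromosome. ZNF708 was open in the basal list alone, and ZNF208 and ZNF676 were open in neither.
shared stretch: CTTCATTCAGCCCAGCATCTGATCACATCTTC

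KRAB zinc finger proteins act through a common set of corepressor genes, and 16 of these were examined in the same way. A basal promoter site was called at 12 and an overexpression site at 13, with 11 in both. Over the other coding genes outside chromosome 19 the shares called were 38.4% and 40.2%, and over all coding genes of chromosome 19 they were 48.4% and 50.1%. TRIM28, the corepressor that binds the KRAB domain, lies on chromosome 19 and had sites of 649 and 599 bp. SETDB1, the histone methyltransferase that TRIM28 recruits, had 349 bp in both lists, CBX5, a heterochromatin protein, had 699 and 749 bp, and ATF7IP, a partner of SETDB1, had 949 and 349 bp. DNMT1, the maintenance DNA methyltransferase, had a basal site alone (149 bp), and SMARCAD1 (199 bp) and PPHLN1 (499 bp) had overexpression sites alone. CHD3 and UHRF1 had none.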

How the data were processed

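FAIRE-seq libraries of both conditions were analysed, grouped per the labels. The authors deposited 1 browser track of sites per library, with a score of 1000 for every site, so the score held no height and site width was used instead. The submitters' processing notes name hg19 and CASAVA 1.8. The aligner, caller, threshold and treatment of repeated reads for FAIRE are not given in the sources used here. Starts were read as 0-based and are printed 1-based.

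Genes came from GENCODE release 44 on GRCh37. A promoter site overlapped the window within 1 kb of the gene 5′ end. Fingers were found in translated principal transcripts as C2H2 spacing and KRAB domains as a letter pattern that misses some members, ZNF443 and ZNF649 among those without a match. Shares have exact (Clopper-Pearson) intervals, differences Newcombe intervals and densities exact Poisson intervals. Conditions were not tested against each other, since each had 1 library. Members with the widest sites, sites in 1 list alone (6 of each), finger exon sites or most body sites were named by rule. The members, defined by name, and the lists were chosen with earlier results of these data known. The scripts were tested on simulated data. Python 3.11.15, numpy 2.4.6, pandas 2.3.3, scipy 1.17.1 and matplotlib 3.10.9 were used.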

Additional observations from a re-analysis of the deposited data

How the results depend on the processing

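The excess of open promoters in members over other coding genes kept its side of 0 in both lists under all alternatives tried, from 13.3 points (wider 50% of each list) to 32.8 points (weighted to GC) in the basal list and from 11.9 to 29.4 points in the overexpression list. Of 133 alternatives for 41 results, 114 kept their call or, where there was no call, stayed within the interval of the value reported. With any transcript start in place of the gene start, members had an open promoter in 77.5% (basal) and 75.5% (overexpression) of cases and other coding genes in 52.2% and 56.1%. With the wider 50% of each list these shares were 50.6% and 52.6% in members and 37.3% and 40.7% in other coding genes. Other coding genes came to 40.8% and 43.9% with a window of 500 bp, 48.3% and 50.6% with 2 kb, and 39.5% and 42.0% with starts within 1 kb counted once. The difference in shared promoter sites reached -4.82 points in the basal list (-10.6 to -0.281) when sites within 500 bp counted as shared. Body site density in members fell to 2.73 and 2.87 per Mb of whole body length without sites near transcript starts. At the principal transcript start, added after seeing the data, the cluster from ZNF565 to ZNF573 reached 92.3% in both lists. Requiring overlap of 50% of both sites raised the counts to 28 for basal alone and 23 for overexpression alone. These counts include members with a site in both lists whose sites overlapped by less than that.

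No paired analysis was possible because each condition had 1 FAIRE library and the labels give no replicate numbers, and no replicate was left out for the same reason. Depth is unknown, so a gene without a site is a gene at which none was called.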
